A study of Rattus norvegicus with 12 samples.

Results

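Transcripts of the kinases reported to mediate the action of MOTS-c were followed in cultured atrial fibroblasts. The set held 10 genes, chosen by symbol, of the 22850 features in the tables: the AMPK subunits Prkaa1, Prkaa2, Prkab1, Prkab2, Prkag1 and Prkag2, the AMPK kinase Stk11 (LKB1), and the casein kinase 2 (CK2) subunits Csnk2a1, Csnk2a2 and Csnk2b. The cells were primary fibroblasts from the atria of Sprague-Dawley rats 1 to 3 days old, enriched by differential adhesion and not sorted. All cultures received angiotensin II (AngII) at 1 μmol/L for 48 h in medium with 2% FBS. The AngII group received nothing else, the AngII+HNG group received Gly14-humanin at 10 μmol/L, and the AngII+MOTS-c group received MOTS-c at 5 μmol/L, each peptide 1 h before AngII. Each group held 4 libraries, 12 in all, and no group without AngII and no peptide alone was analysed here, so AngII itself was part of every value.

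AMPK is a heterotrimer that restrains anabolic metabolism and promotes catabolism when AMP rises relative to ATP. Its alpha subunit carries the kinase domain, its beta subunit is the scaffold that also binds glycogen, and its gamma subunit binds adenine nucleotides. LKB1 phosphorylates the activation loop of alpha. CK2 is a constitutively active serine/threonine kinase in which catalytic alpha or alpha prime subunits assemble on a dimer of the regulatory beta subunit. MOTS-c, a peptide encoded in mitochondrial 12S rRNA, has been described to slow the folate cycle and purine synthesis, to raise the AMPK activator AICAR, and to bind CK2 in muscle. Humanin is encoded in mitochondrial 16S rRNA, and HNG is a more potent glycine-substituted form. Activity of AMPK and CK2 is set largely by phosphorylation, nucleotides and assembly, none of which a transcript count measures.

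The sequences upstream of 3 of these genes are shown because Prkaa1 and Stk11 were the members below the AngII libraries in every AngII+HNG library, and because Prkaa2 encodes the paralog of Prkaa1. Each run is the 250 bases before the start given by RefSeq, 5′ to 3′ on the strand of the gene, build GRCr8. The Prkaa1 run is chr2:55967525-55967774 on the plus strand, the Prkaa2 run chr5:125108325-125108574 on the minus strand and the Stk11 run chr7:10241966-10242215 on the minus strand. Capitals mark the GC box GGGCGG and the CCAAT box CCAAT on either strand, and overlapping matches run together.
Prkaa1: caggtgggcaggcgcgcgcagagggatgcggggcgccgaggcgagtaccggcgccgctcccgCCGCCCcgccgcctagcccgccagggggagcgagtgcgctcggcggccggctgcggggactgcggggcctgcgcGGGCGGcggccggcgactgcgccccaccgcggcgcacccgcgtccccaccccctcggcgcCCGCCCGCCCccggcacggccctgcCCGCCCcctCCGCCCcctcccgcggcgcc
Prkaa2: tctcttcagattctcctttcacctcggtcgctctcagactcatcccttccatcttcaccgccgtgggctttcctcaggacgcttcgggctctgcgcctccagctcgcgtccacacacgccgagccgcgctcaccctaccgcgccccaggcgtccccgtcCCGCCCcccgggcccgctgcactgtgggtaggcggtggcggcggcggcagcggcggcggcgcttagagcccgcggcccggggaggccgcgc
Stk11: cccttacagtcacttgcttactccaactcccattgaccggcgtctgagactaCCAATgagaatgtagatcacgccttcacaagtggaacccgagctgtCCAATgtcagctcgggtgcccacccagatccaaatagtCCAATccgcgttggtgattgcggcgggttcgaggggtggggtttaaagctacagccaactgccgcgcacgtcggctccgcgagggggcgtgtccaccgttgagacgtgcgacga
The Prkaa1 run held 6 GC boxes at a GC content of 86.4%, whereas the Prkaa2 run held 1 GC box at 72.8%. The Stk11 run held no GC box and 3 CCAAT boxes at 58.4%, against a median of 51.2% over all promoters. A promoter entry was found for 9 of the 10 members, all but Csnk2b. GC boxes occurred in 7 of these 9, and in 30.5% of 33469 RefSeq promoters of the same length. CCAAT was found in 2 of the 9, Stk11 and Csnk2a1, against 34.0% of all promoters. The TATA box TATAAA, the E-box CACGTG and the cAMP response element TGACGTCA were found in 0 of the 9, against 12.9%, 5.59% and 1.59% of all promoters.

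Library totals ranged from 27960586 to 38322354 counts, and each member was covered by 540 to 6038 counts in every library. All 10 fibroblast markers were detected, with summed levels of 62969 to 70920 CPM (counts scaled to library size) over the 12 libraries. All 10 cardiomyocyte markers were detected too, at 5571 to 7377 CPM summed, with overlapping groups. The macrophage markers, 10 of 10 detected, summed to 224 to 270 CPM in AngII, 309 to 405 in AngII+HNG and 222 to 268 in AngII+MOTS-c. The endothelial markers, 8 of 8 detected, summed to 64.8 to 73.0, 82.8 to 91.0 and 68.7 to 74.3 CPM in that order, and the smooth muscle and pericyte markers, 8 of 8, to 6980 to 7278, 5448 to 6022 and 6634 to 7228 CPM. The Schwann (4 markers) and epicardial (5 markers) sums, 7.05 to 9.77 and 49.6 to 64.0 CPM, overlapped between groups. Within the smooth muscle and pericyte list, Acta2 (3218 to 4282 CPM) and Tagln (1538 to 2260 CPM) had the highest levels. The paper used alpha-SMA, the product of Acta2, as a marker of fibroblast activation, so this sum does not stand for those cell types alone. In such bulk samples fewer cells of a type and less RNA per cell cannot be told apart.

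AngII+HNG replicate 3 stood apart from the other libraries. It was the highest or the lowest of the 12 libraries for 8 of the 10 members and for 36.5% of all genes, compared with 11.9% to 23.6% of genes in each of the others. It was highest for Prkag1 and Csnk2b, and lowest for Prkaa1, Prkaa2, Prkab2, Stk11, Csnk2a1 and Csnk2a2. Its departure from the other AngII+HNG libraries moved with transcript length, with a Spearman rho of -0.53 across 10074 genes, which are not independent replicates. In the other libraries this rho lay between -0.32 and 0.38. Among the members, its log2 CPM departed by -0.42 for Prkaa2 with an implied length of 8412 bases and by -0.18 for Prkaa1 with 4889 bases. Of the 3 shortest members, the departure was 0.24 for Prkag1 with 1679 bases and 0.10 for Csnk2b with 958 bases, but -0.11 for Csnk2a2 with 1601 bases. The part of length in the member values was not tested. For the members in which AngII+HNG replicate 3 was highest or lowest, the HNG log2 fold change is also given without it. Correlations over the 12 libraries and isoform shares include it.

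**Figure D1:**
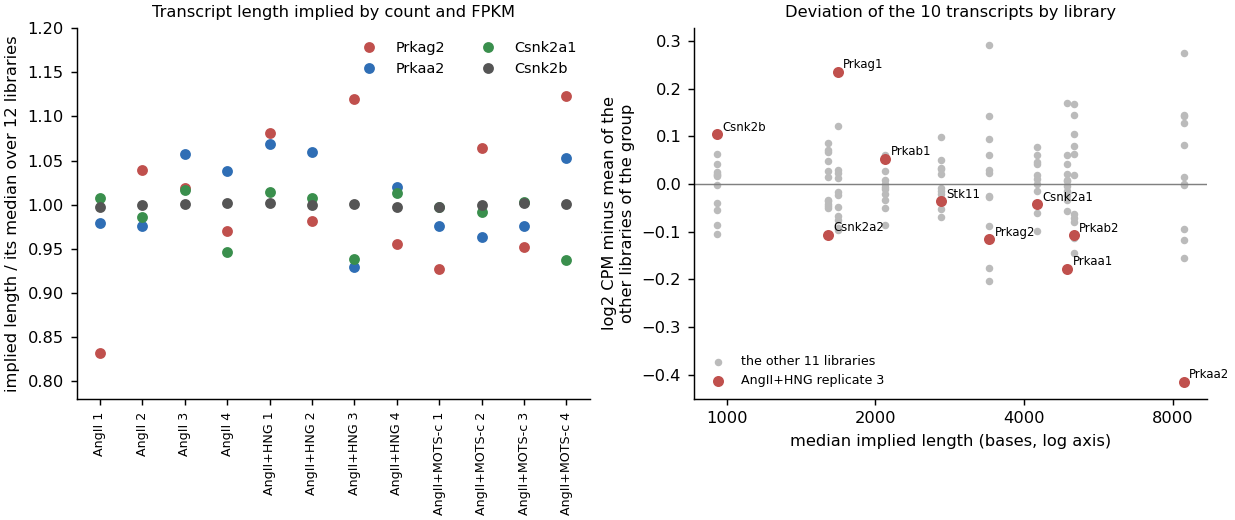
Left, the transcript length implied by count and FPKM for 4 members, divided by its median over the 12 libraries (x axis: libraries). Right, log2 CPM of each member minus the mean of the other libraries of its group against the median implied length in bases (log axis); in AngII+HNG replicate 3 (red) Prkaa2 lies at -0.42 and Prkag1 at 0.24.

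Levels between genes were compared in FPKM, which divides by length. Csnk2b, the regulatory subunit of CK2, was the most abundant member, with a mean of 71.1 ± 2.45 FPKM (SD, n = 12), at the 94.0 percentile of 14686 genes whose median was 7.17 FPKM. Csnk2a1, which encodes the catalytic alpha subunit, followed at 36.5 ± 1.72 FPKM, and the gamma subunit Prkag1 stood at 35.6 ± 2.00 FPKM. The ranges of Csnk2a1 and Prkag1 overlapped, and this order held in 10 of 12 libraries. Csnk2a2, encoding CK2 alpha prime, reached 26.5 ± 0.772 FPKM and Stk11 24.6 ± 0.819 FPKM, with overlapping ranges but the same order in 12 of 12 libraries. Prkab1 followed at 16.1 ± 0.621, Prkaa1 at 13.6 ± 0.796 and Prkaa2 at 7.48 ± 0.616 FPKM. Prkag2 at 6.33 ± 0.661 and Prkab2 at 4.26 ± 0.241 FPKM closed the order. The ranges of Prkaa2 and Prkag2 overlapped, with the same order in 12 of 12 libraries, and the other neighbours from Stk11 downwards did not overlap. Prkag3, the gamma isoform of skeletal muscle, had a mean of 0.0977 FPKM.

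**Figure D2:**
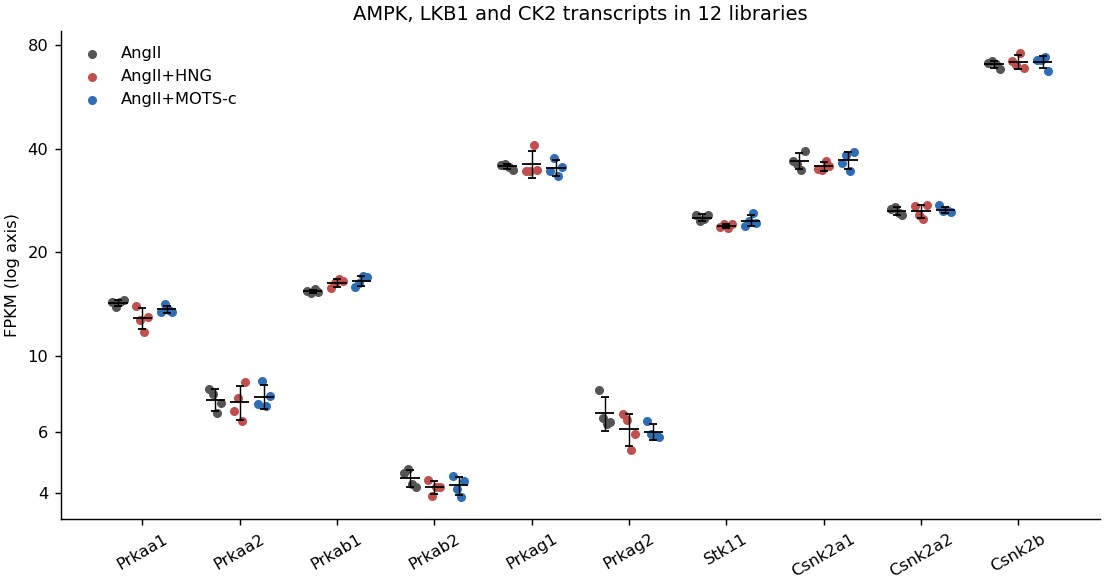
FPKM of the 10 members (log axis) in every library, coloured by group, with the mean and SD of 4 libraries. Csnk2b lies highest with a mean of 71.1 FPKM and Prkab2 lowest with 4.26 FPKM, and the groups lie close together within each gene.

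Spread over the 12 libraries was small for most members. The coefficient of variation of CPM ran from 3.20% for Csnk2b to 9.05% for Prkaa2, which stood at the 90.2 percentile of 501 genes of like level. Prkag2, a gamma subunit with several known transcript forms, showed another kind of spread. The length implied by its count and FPKM ranged from 2826 bases in AngII replicate 1 to 3815 bases in AngII+MOTS-c replicate 4, a ratio of 1.35 at the 98.0 percentile of 10074 genes. The median gene had a ratio of 1.01, and Csnk2b had 1.00, so the FPKM of Prkag2, and with a ratio of 1.15 that of Prkaa2, did not rest on a fixed length.

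Whether HNG or MOTS-c altered the amount of these transcripts was tested for each peptide against the same 4 AngII libraries, so both comparisons share their controls. With HNG, 0 of 10 members passed an adjusted p of 0.05 (edgeR quasi-likelihood test, Benjamini-Hochberg over 14524 genes), against 5.98% of all genes tested. Of the 10, 2 had an unadjusted p below 0.05, both lower, against 20.3% of all genes and 9.16% in that direction. With MOTS-c, 0 of 10 passed, against 0.00690% of all genes, and 0 had an unadjusted p below 0.05, against 5.05%. Between HNG and MOTS-c, 0 of 10 passed, against 4.41%, and 0 had an unadjusted p below 0.05, against 19.3%, or groups without overlap, against 12.6%. All 10 members passed the filter on low counts in each comparison. DESeq2 called 1 member, Prkaa1, with HNG, against 8.57% of the genes to which it gave an adjusted p. It called 0 members with MOTS-c and 0 between the peptides, against 0.0221% and 7.62%. At an unadjusted p below 0.05 DESeq2 gave 2, 0 and 0 members in the 3 comparisons, against 15.5%, 3.70% and 15.1% of genes with a p.

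**Figure D3:**
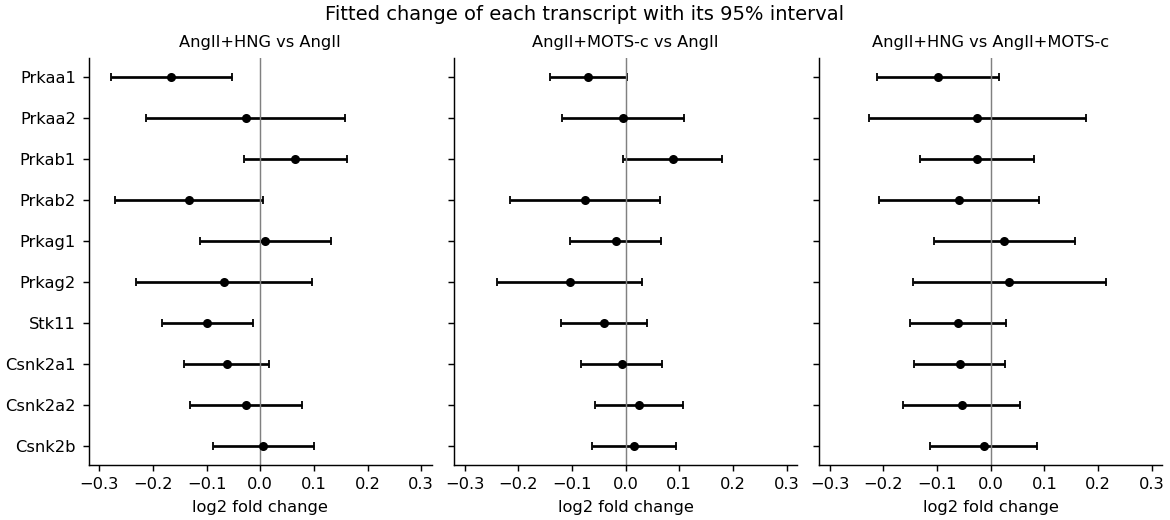
Log2 fold change of each member with its 95% interval (bars) in the 3 comparisons, from the edgeR fits on 8 libraries each. With HNG the intervals of Prkaa1 and Stk11 lie below 0, and with MOTS-c all 10 intervals include 0.

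Prkaa1, the catalytic alpha subunit found in most tissues, showed the largest difference among the members with HNG. Its CPM was 70.7, 68.2, 70.5 and 71.9 in AngII replicates 1 to 4, 68.2, 62.0, 56.9 and 63.0 in AngII+HNG, and 65.7, 69.1, 66.7 and 66.2 in AngII+MOTS-c. The AngII+HNG libraries lay below all AngII libraries only narrowly, at 68.16 against 68.24 CPM for the closest pair, and in FPKM the groups overlapped. The log2 fold change with HNG was -0.17 (SE 0.052, 95% interval -0.28 to -0.053), a ratio of 0.892, with an unadjusted p of 0.00726 and an adjusted p of 0.0872 (edgeR). The adjusted p was 0.0389 with DESeq2 and 0.0408 with all 12 libraries in one edgeR fit, which called 7.05% of all genes. It was 0.0295, with a log2 fold change of -0.21, without AngII+HNG replicate 1, and 0.117, with -0.13, without AngII+HNG replicate 3. Of 18 alternatives 3 called Prkaa1, which were DESeq2, the fit of all 12 libraries and the fit without AngII+HNG replicate 1. The adjusted p was 0.170 with replicates 2 and 3 summed, 0.176 and 0.174 with limma on FPKM, and up to 0.190 when another library was left out. With MOTS-c the log2 fold change was -0.070 (SE 0.033, adjusted p 0.924, edgeR), and 3 of 4 libraries lay below all AngII libraries. HNG against MOTS-c gave -0.099 (SE 0.053, adjusted p 0.328, edgeR).

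Stk11, the upstream kinase, had CPM of 71.0, 67.3, 68.0 and 70.4 in AngII, 63.8, 65.2, 63.1 and 65.3 in AngII+HNG, and 64.8, 66.9, 70.6 and 66.4 in AngII+MOTS-c. All AngII+HNG libraries lay below all AngII libraries, and the AngII+MOTS-c libraries overlapped both groups. The log2 fold change was -0.099 (SE 0.039, unadjusted p 0.0254, adjusted p 0.175, edgeR) with HNG and -0.041 (SE 0.037, adjusted p 0.939, edgeR) with MOTS-c. Without AngII+HNG replicate 3 the HNG value was -0.091 (adjusted p 0.197, edgeR). The groups of Prkaa1, Stk11 and Prkab1 did not overlap between HNG and AngII, 2 lower and 1 higher, against 13.7% of all genes, 6.82% lower and 6.87% higher.

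Over the 12 libraries Prkaa1 and Stk11 varied together, with a Pearson r of 0.70 for log2 CPM, given as a description of libraries that share treatments and depth. The marker sums that differed with HNG were correlated with both genes, some positively and some negatively. Both genes also lay lower with HNG, so the group difference itself enters each r. For Prkaa1 the r was -0.70 with the macrophage sum, -0.70 with the endothelial sum and 0.69 with the smooth muscle and pericyte sum. For Stk11 the values were -0.57, -0.65 and 0.67. Among all members the largest r in size was -0.90, between Csnk2b and the fibroblast sum. Prkaa2 had 0.77 with that sum. The part of cell types or of fibroblast state in the member values was not tested.

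Prkaa2, the alpha subunit prominent in muscle, was variable. Its CPM was 66.8, 64.0, 60.9 and 64.5 in AngII, 61.9, 67.0, 50.01 and 71.5 in AngII+HNG, and 59.8, 68.5, 58.6 and 68.0 in AngII+MOTS-c. The AngII+HNG group held both the lowest and the highest of the 12 libraries, and the groups overlapped. The log2 fold change was -0.027 (SE 0.085, 95% interval -0.21 to 0.16) with HNG and -0.0049 (SE 0.053, interval -0.12 to 0.11) with MOTS-c. Without AngII+HNG replicate 3 the HNG value was 0.065. Prkaa1 made up 65.6 ± 1.82% (SD, n = 4) of the alpha FPKM in AngII, 63.7 ± 2.59% in AngII+HNG and 64.2 ± 1.34% in AngII+MOTS-c.

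Of the beta scaffolds, Prkab1 was higher in every peptide library than in any AngII library. Its CPM was 32.5, 32.2, 33.0 and 32.5 in AngII, 33.0, 33.8, 34.9 and 34.0 in AngII+HNG, and 33.0, 33.9, 35.6 and 35.6 in AngII+MOTS-c. The closest values differed by little, 32.97 in AngII against 33.01 in AngII+HNG and 33.02 in AngII+MOTS-c. With MOTS-c it was the only member whose groups did not overlap, against 3.41% of all genes and 1.68% in that direction, but its log2 fold change of 0.088 (SE 0.043) had an unadjusted p of 0.0604 and an adjusted p of 0.924 (edgeR). With HNG the log2 fold change was 0.065 (SE 0.045, adjusted p 0.464, edgeR). Both values rest on the same AngII libraries. Prkab2, the beta isoform prominent in muscle, had CPM of 23.4, 23.7, 21.6 and 21.2 in AngII, 22.3, 19.7, 19.3 and 20.6 in AngII+HNG, and 22.9, 20.6, 19.7 and 22.0 in AngII+MOTS-c. Its groups overlapped, with a log2 fold change of -0.13 (SE 0.064, unadjusted p 0.0587, adjusted p 0.270, edgeR) with HNG and -0.075 (SE 0.065) with MOTS-c. Without AngII+HNG replicate 3 the HNG value of Prkab2 was -0.11. The share of Prkab1 in the beta FPKM was 77.7 ± 1.13% in AngII, 79.7 ± 0.956% in AngII+HNG and 79.7 ± 1.41% in AngII+MOTS-c, and the groups overlapped. For each peptide against AngII the two-sided exact permutation p was 0.0857 and the Benjamini-Hochberg value over 12 such tests 0.514.

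Of the gamma subunits, Prkag1 had CPM of 60.5, 61.0, 59.5 and 59.4 in AngII, 57.3, 57.9, 68.0 and 58.0 in AngII+HNG, and 57.7, 63.1, 56.2 and 59.9 in AngII+MOTS-c. The value of 68.0 belonged to AngII+HNG replicate 3, and the other AngII+HNG libraries lay below all AngII libraries. The log2 fold change with HNG was 0.0094 (SE 0.057), and -0.055 without that replicate. With MOTS-c it was -0.018 (SE 0.040). Prkag2 had CPM of 22.7, 23.5, 22.0 and 21.4 in AngII, 24.7, 21.6, 19.99 and 19.1 in AngII+HNG, and 20.5, 21.4, 18.9 and 22.4 in AngII+MOTS-c. Its groups overlapped, with log2 fold changes of -0.067 (SE 0.076) and -0.10 (SE 0.063). The HNG value was -0.14 without AngII+HNG replicate 1, -0.040 without replicate 3 and -0.017 without replicate 4. With limma on FPKM the HNG value of Prkag2 was -0.13 and -0.15. Its MOTS-c value ran from -0.17 to -0.063 over 18 alternatives. Prkag1 made up 83.9 ± 1.38%, 85.4 ± 2.20% and 85.4 ± 0.992% of the FPKM of Prkag1 and Prkag2 in AngII, AngII+HNG and AngII+MOTS-c. In AngII+HNG this share was 88.5% in replicate 3, against 83.5%, 84.1% and 85.4% in replicates 1, 2 and 4.

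Of the CK2 subunits, Csnk2a1 had CPM of 159, 152, 150.5 and 160.4 in AngII, 149, 147, 145 and 152 in AngII+HNG, and 154, 161, 147 and 156 in AngII+MOTS-c. Only 1 AngII+HNG library, replicate 4, lay within the AngII range, and the AngII+MOTS-c libraries spread over it. The log2 fold change was -0.062 (SE 0.037, adjusted p 0.379, edgeR) with HNG and -0.0070 (SE 0.035) with MOTS-c. Without AngII+HNG replicate 3 the HNG value of Csnk2a1 was -0.053. Csnk2a2 had 41.7 to 43.7 CPM in AngII, 39.4 to 43.5 in AngII+HNG and 42.3 to 44.8 in AngII+MOTS-c, and log2 fold changes of -0.027 (SE 0.048) and 0.025 (SE 0.038). Without AngII+HNG replicate 3 the HNG value was -0.0027, and leaving out any other library gave values down to -0.048, reached without AngII+HNG replicate 4. Csnk2b had 65.9 to 69.3, 64.8 to 71.6 and 64.8 to 70.6 CPM, and log2 fold changes of 0.0057 (SE 0.044) and 0.016 (SE 0.037). The HNG value turned to -0.023 without AngII+HNG replicate 3 and to -0.0093 without AngII replicate 4. The MOTS-c value ran from 0.00011 to 0.042 over 18 alternatives. The groups overlapped for these subunits. Csnk2a1 made up 58.2 ± 1.59%, 57.4 ± 1.53% and 58.2 ± 1.62% of the catalytic CK2 FPKM in AngII, AngII+HNG and AngII+MOTS-c.

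**Figure D4:**
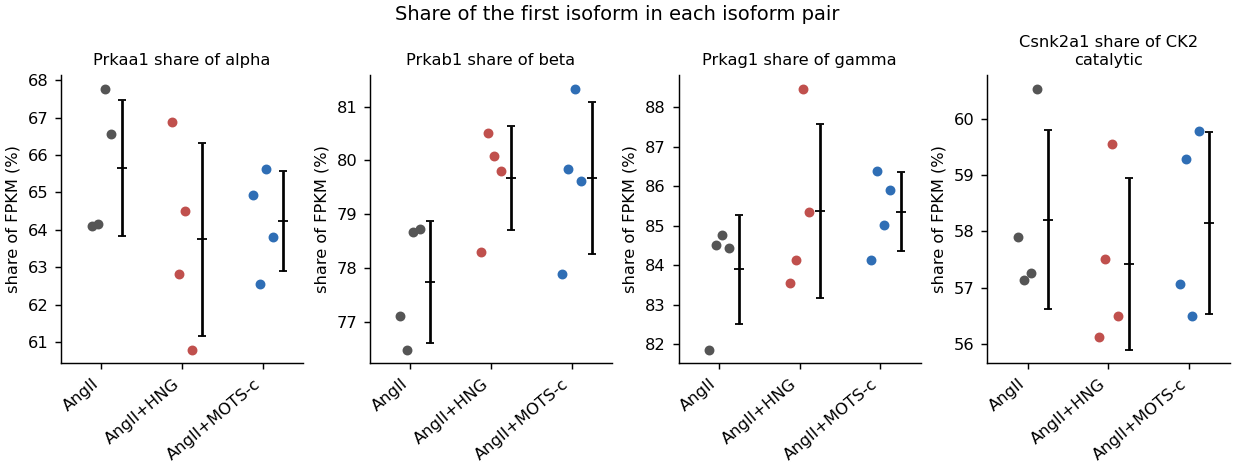
Share of the first named isoform in the FPKM of each isoform pair (%, axes do not start at 0), with points for libraries and bars for mean and SD of 4 libraries. Prkab1 has a mean of 77.7% in AngII and 79.7% with either peptide, with overlapping libraries and an adjusted p of 0.514 by exact permutation tests.

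For the isoform shares 4 against 4 libraries cannot give an exact permutation p below 0.0286, and the smallest adjusted p of the 12 tests was 0.514. The 95% intervals were computed for each member alone and do not hold jointly over all members. With MOTS-c they ran from a ratio of 0.847 for Prkag2 to 1.13 for Prkab1, and with HNG from 0.825 for Prkaa1 to 1.12 for Prkab1. The median log2 fold change of the 10 members was -0.045 with HNG and -0.013 with MOTS-c, beside 0.0043 and -0.00076 for all genes tested. Between HNG and MOTS-c the members ran from -0.099 for Prkaa1 to 0.035 for Prkag2, with a smallest adjusted p of 0.328 (edgeR).

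The genes varying most like the catalytic subunits over the 12 libraries were found by Pearson r of log2 CPM among 12196 genes. For Prkaa1 these were Tspan2 with r of 0.96 and Ate1 with 0.95, and for Prkaa2 Azi2 with 0.93 and Steep1 with 0.92. For Csnk2a1 they were Eps8 and Kmt5b, both with 0.92, and for Csnk2a2 Fam76b with 0.91 and Hdgfl3 with 0.90. These r are the highest of 12196 values over 12 libraries, so a high r follows in part from the choice. Without the 2 libraries farthest from the median, r was 0.89 for Tspan2, 0.88 for Ate1, 0.86 for Azi2 and 0.75 for Steep1. It was 0.91 for Eps8, 0.92 for Kmt5b, 0.88 for Fam76b and 0.72 for Hdgfl3.

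The surroundings of the kinases were read from lists of AMPK regulators and targets, AMPK-related kinases, folate and purine metabolism, AMP turnover and CK2 partners. These lists were chosen with earlier results of these data known, so their counts beside the shares of all genes are descriptions. In the list of AMPK regulators 1 of 15 tested genes rose and 0 fell with HNG, against 3.40% higher and 2.58% lower of all genes. Lamtor1, part of the lysosomal Ragulator complex on which AMPK can be activated, rose from 51.1 ± 2.74 to 60.0 ± 2.60 CPM (log2 fold change 0.24, SE 0.051, adjusted p 0.0164, edgeR). The phosphatases Ppm1a and Ppm1e, the most and least abundant genes tested in all 3 comparisons, had log2 fold changes of 0.011 and 0.033. Among AMPK targets 2 of 25 rose and 0 fell with HNG. At an unadjusted p below 0.05 there were 6 higher and 4 lower, against 11.1% and 9.16% of all genes. Flcn, folliculin, which acts with Rag GTPases at the lysosome, rose from 53.5 ± 1.61 to 64.8 ± 2.52 CPM (log2 fold change 0.28, SE 0.045, adjusted p 0.00339, edgeR). Srebf1, a transcription factor of lipid synthesis that AMPK inhibits, rose from 156 ± 0.802 to 173 ± 4.49 CPM (log2 fold change 0.15, SE 0.035, adjusted p 0.0207, edgeR). Mff, a mitochondrial fission factor, and Acacb, an acetyl-CoA carboxylase, had log2 fold changes of 0.067 and 0.0099. The other higher ones at an unadjusted p below 0.05 were Foxo3 at 0.22, Fnip2 at 0.19, Fnip1 at 0.18 and Pfkfb2 at 0.18. Among the lower ones were the glycolytic regulator Pfkfb3 at -0.16, Acaca, an acetyl-CoA carboxylase, at -0.12 and Tbc1d1 at -0.12. Of the 25 targets 3 higher (Flcn, Srebf1 and Pfkfb2) and 2 lower (Pfkfb3 and Acaca) did not overlap with AngII, against 6.87% and 6.82% of all genes. Foxo3, Fnip2, Fnip1, Pfkfb2, Pfkfb3, Acaca and Tbc1d1 were picked out once their values had been seen, and none of them passed the adjusted test. The median of the targets was 0.047.

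Folate and purine genes, the pathway through which MOTS-c is described to act, were listed with genes of the methionine cycle such as Mat2a. This list held 2 called higher and 2 called lower of 29 with HNG, against 3.40% and 2.58% of all genes. At an unadjusted p below 0.05 there were 3 higher and 5 lower, against 11.1% and 9.16%, the further ones being Shmt1 at 0.22, Shmt2 at -0.14, Ppat at -0.11 and Aldh1l2 at -0.090, named after their values were seen. Mat2a, which makes S-adenosylmethionine, fell from 167 ± 2.67 to 134 ± 4.81 CPM (log2 fold change -0.31, SE 0.037, adjusted p 5.5e-04, edgeR). Mthfd2, a mitochondrial folate enzyme, fell from 161 ± 3.49 to 138 ± 9.11 CPM (log2 fold change -0.23, SE 0.047, adjusted p 0.0128, edgeR). Impdh2, an enzyme of guanine nucleotide synthesis, rose from 177 ± 4.60 to 197 ± 2.79 CPM (log2 fold change 0.16, SE 0.035, adjusted p 0.0188, edgeR). Aldh1l1, a cytosolic folate dehydrogenase expressed at a low level, rose from 1.78 ± 0.130 to 2.57 ± 0.120 CPM (log2 fold change 0.53, SE 0.13, adjusted p 0.0332, edgeR). In AMP turnover 1 of 12 rose and 0 fell, against 3.40% and 2.58% of all genes, and at an unadjusted p below 0.05 there were 2 higher and 1 lower. Nt5e, the ectoenzyme that converts AMP to adenosine, rose from 46.8 ± 2.86 to 54.5 ± 2.25 CPM (log2 fold change 0.22, SE 0.053, adjusted p 0.0271, edgeR). The other 2 were Ada, adenosine deaminase, at 0.20 and the adenylate kinase Ak3 at -0.086, Ada being named after its value was seen. Ak5, another adenylate kinase, had a log2 fold change of -0.27 (SE 0.25, unadjusted p 0.303, edgeR), with as few as 14 counts in a library.

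The remaining lists held no called gene with HNG. Of the AMPK-related kinases 0 of 11 were called, against 5.98% of all genes, with a median log2 fold change of -0.091. At an unadjusted p below 0.05 there was 1 gene, lower, against 9.16% of all genes. That gene was Nuak1, the most abundant of them, at -0.15 (adjusted p 0.185, edgeR). Brsk2, the least abundant, had -0.22 (SE 0.38), with as few as 7 counts in a library. Of the CK2 partners and substrates 0 of 18 were called, and 1 higher and 3 lower had an unadjusted p below 0.05, against 11.1% and 9.16% of all genes. These were Npm1 at 0.10, and Eif2s2 at -0.14, Hsp90aa1 at -0.13 and Ptges3 at -0.13, named after their values were seen. Hsp90ab1, a chaperone, had a log2 fold change of 0.064, and Xrcc4, a DNA repair factor, had 0.034. Of the casein kinase 1 genes 0 of 6 were called, with -0.083 for Csnk1a1 and -0.039 for Csnk1g1, and 1 had an unadjusted p below 0.05, Csnk1g3 at -0.15, named after its value was seen.

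**Figure D5:**
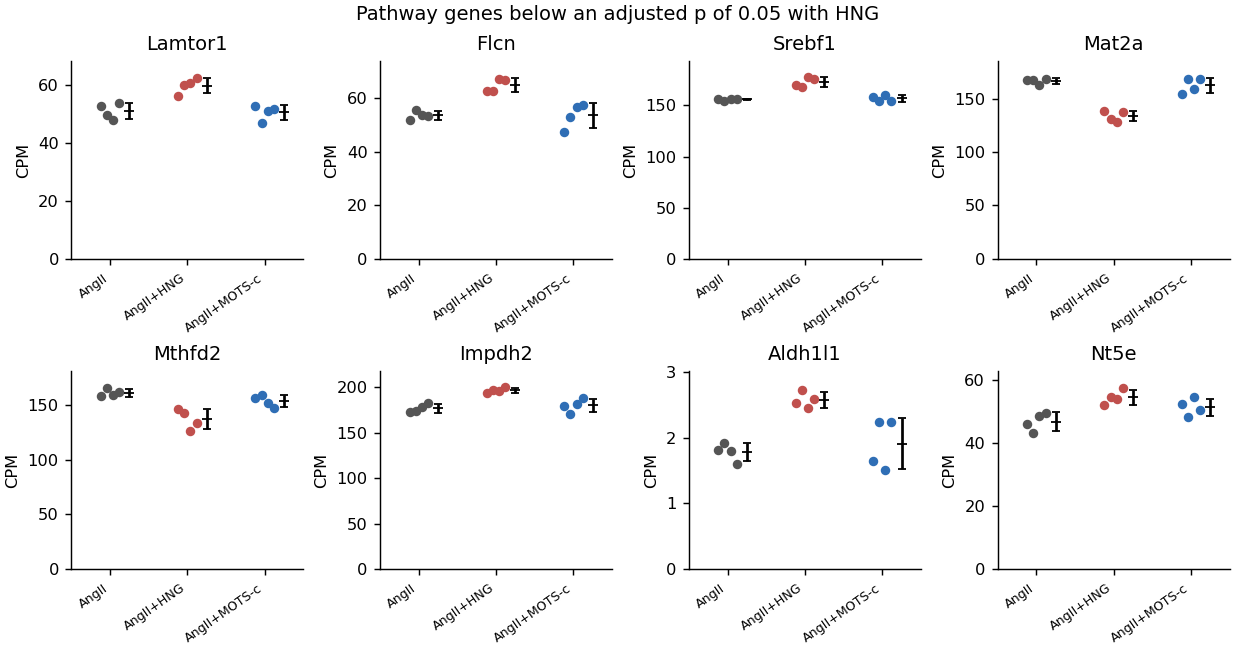
CPM of the 8 pathway genes called with HNG, in every library (points) with the mean and SD of 4 libraries (bars), axes from 0. All AngII+HNG libraries lie above, or for Mat2a and Mthfd2 below, all AngII libraries.

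With MOTS-c 0 genes of these lists were called by edgeR or DESeq2. At an unadjusted p below 0.05, edgeR gave 1 lower gene in the folate and purine list and 1 higher gene in the AMP turnover list, against 2.61% lower and 2.44% higher of all genes. The former was Adss, adenylosuccinate synthase, at -0.069 (p 0.0429, adjusted p 0.924), named after its value was seen. The latter was Nt5e, with a log2 fold change of 0.13 (p 0.0210, adjusted p 0.924). Lamtor1 had -0.011, Flcn 0.0018, Srebf1 0.011, Mat2a -0.033, Mthfd2 -0.065, Impdh2 0.030 and Aldh1l1 0.11 (SE 0.17) with MOTS-c. The difference between the peptides passed the test for 3 genes, 2 higher and 1 lower, against 2.64% and 1.77% of all genes. These were Lamtor1 (0.24, adjusted p 0.0167), Flcn (0.28, adjusted p 0.0219) and Mat2a (-0.28, adjusted p 0.00318), as log2 of HNG over MOTS-c by edgeR. Of these, Mat2a was called whichever library was left out. Flcn lost this call without AngII+HNG replicate 4 (adjusted p 0.0618) or AngII+MOTS-c replicates 1 (0.0638) or 2 (0.0835), by edgeR. Lamtor1 lost it without AngII+HNG replicate 2 (adjusted p 0.0549) or AngII+MOTS-c replicates 2 (0.0676) or 3 (0.0518), by edgeR. Of the 8 genes called with HNG against AngII, Flcn, Mat2a and Mthfd2 were called whichever library was left out. Aldh1l1 lost its call whichever library was left out, with adjusted p of 0.0509 to 0.102 (edgeR). Impdh2 and Nt5e each lost their call when any one of AngII replicates 1, 2 and 3 and AngII+HNG replicates 2 and 4 was left out, with adjusted p up to 0.0870 and 0.0977 (edgeR). Srebf1 lost it without AngII replicates 1, 2 or 3 or AngII+HNG replicate 4, and Lamtor1 without AngII replicates 2 or 3 or AngII+HNG replicate 4, with adjusted p up to 0.0800 and 0.0666 (edgeR). With replicates 2 and 3 summed the adjusted p was 0.0571 for Impdh2, 0.0579 for Nt5e, 0.0660 for Lamtor1 and 0.0844 for Aldh1l1 (edgeR). Without AngII+HNG replicate 3, 10 genes of the lists were called with HNG. That fit called 932 of 14647 genes in all, against 869 of 14524 with every library. The macrophage, endothelial and smooth muscle sums given above differed with HNG in these same libraries, and their part in the pathway genes was not tested.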

How the data were processed

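The authors made mRNA libraries with a Hieff NGS kit for paired-end DNBSEQ sequencing. They deposited raw counts per gene, not normalized, and FPKM for the same libraries. HISAT2, Picard 1.41 and SAMtools 0.1.18 are named in the submitters' processing notes. The counting tool, strand use and genome build are not given in the sources used here. Groups and replicate numbers came from the sample titles. The members and gene lists were chosen with earlier results of these data known.

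Counts were fitted in R 4.3.3 with edgeR 4.0.16 (filterByExpr, TMM, glmQLFit and glmQLFTest) on the 8 libraries of each comparison, with Benjamini-Hochberg adjustment over all genes and a threshold of 0.05. Standard errors came from the F statistic. CPM per library used TMM factors of all 12 libraries, and log2 CPM a prior count of 2. Implied length is the length that turns a count into its FPKM, for genes with at least 200 counts in every library. Isoform shares were compared by two-sided exact permutation tests (numpy 2.4.6). The named pathway genes were those called in any comparison and the most and least abundant gene of each list tested in all 3 comparisons. Of the likeness ranks, 2 genes per catalytic subunit were named, without placeholder symbols and at a mean of at least 1 CPM. Prkag3 and the genes named only for an unadjusted p below 0.05 were added once their values had been seen. The computation was tested on simulated data. Alternatives included DESeq2 1.42.0 and limma 3.58.1. The study's methods describe the 4 libraries of a group as biological replicates. Whether each came from its own cell preparation is not stated, and p-values measure the spread between these libraries. RefSeq sequences were matched by symbol.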

Additional observations from a re-analysis of the deposited data

Results flagged for a closer look

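In groups of 4 libraries, the gap of an extreme library was compared with the range of its group for CPM and isoform shares, 42 groups in all, with a critical value of 0.829. Chance alone marks about 1 in 20 groups. Prkag1 in AngII+HNG replicate 3, at 68.0 CPM against 57.3 to 58.0 in the other AngII+HNG libraries, exceeded it with a ratio of 0.933. The Prkag1 share of gamma FPKM in AngII replicate 1, at 81.8%, exceeded it with a ratio of 0.883. In that library the implied length of Prkag2 was the lowest of 12 libraries, 2826 bases, and with one length per gene the share was 84.4%.

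The change with HNG differed from that with MOTS-c, by a direct edgeR quasi-likelihood comparison of the 2 groups, for 3 pathway genes. The log2 difference of HNG over MOTS-c was 0.24 for Lamtor1, 0.28 for Flcn and -0.28 for Mat2a. Without AngII+HNG replicate 3 these values were 0.24, 0.26 and -0.26, with adjusted p of 0.0253, 0.0384 and 0.00380. Mat2a kept its call without any other library too. Flcn lost its call without AngII+HNG replicate 4 or AngII+MOTS-c replicates 1 or 2, with adjusted p of 0.0618, 0.0638 and 0.0835, and with a block on the numbers in library names (0.0542). Lamtor1 lost its call without AngII+HNG replicate 2 or AngII+MOTS-c replicates 2 or 3, with adjusted p of 0.0549, 0.0676 and 0.0518.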

How the results depend on the processing

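Of the member log2 fold changes under all alternatives, 506 kept direction and call, 31 reversed and 3 became called, and of the share differences 129 kept both and 15 reversed. The members called with HNG were 1, Prkaa1, with DESeq2 (1192 genes called in all, against 869) and with all 12 libraries in one fit (1035 genes), and 0 to 1 when a library was left out, the 1 being without AngII+HNG replicate 1 (833 genes). Summing replicates 2 and 3, whose library names carry the same number, gave 577 genes and 4 pathway genes with HNG against 869 and 8, and 0 genes with MOTS-c against 1. With MOTS-c, DESeq2 called 4 genes and the fit of all 12 libraries 0. Between HNG and MOTS-c, DESeq2 called 1034 genes and 12 pathway genes against 637 and 3, the fit of all 12 libraries 975 and 7, and a minimum of 10 counts 5 pathway genes.

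Pairing by replicate number was taken to need a correlation of same-numbered deviations above 0.1 in every pair, which no comparison met. With HNG and with MOTS-c against AngII, 1 of 4 pairs exceeded it. Between the peptides 3 of 4 did, at 0.112, 0.102 and 0.245, and replicate 1, whose library names carry the numbers 1 and 2, had -0.0096, so pairing in that comparison was not settled. With the replicate block, 0 members were called in each comparison, with 1111 genes and 14 pathway genes with HNG, 2 genes with MOTS-c, and 1054 genes and 8 pathway genes between the peptides, among them Srebf1 (adjusted p 0.0355) and Mthfd2 (0.0267). Blocking on the number within library names gave 1113 genes and 14 pathway genes with HNG, and 485 genes and 3 pathway genes between the peptides. The sum of replicates 2 and 3 gave 430 and 3 there, and neither setting called Srebf1 or Mthfd2.

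Leaving out 1 library gave 431 to 932 genes and 3 to 10 pathway genes with HNG, 0 to 3 genes with MOTS-c, and 322 to 625 genes and 1 to 5 pathway genes between the peptides. With HNG, 431, 485 and 512 genes were called without AngII replicates 1, 2 and 3. For the peptides, 416 genes were called without AngII+HNG replicate 2, and 324, 322 and 389 without AngII+MOTS-c replicates 1, 2 and 3.

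The reversed values were small. With HNG, the sum of replicates 2 and 3 gave -0.013 for Prkag1 and -0.00054 for Csnk2b. With MOTS-c, Prkaa2 and Csnk2a1 became 0.045 and 0.0039 with the library name block, 0.025 and 0.0094 with limma on FPKM plus 1, and 0.028 and 0.0096 on FPKM plus 0.1. Flcn became -0.0012 with the replicate block and -0.0010 with the sum. Between the peptides, Prkag2 became -0.048 with the library name block, Prkaa2 0.0021 with the sum and Csnk2b 0.00020 in both limma fits. The Prkag1 share became -0.218 points from raw counts, -0.170 with one length per gene, chosen after seeing the data, and -0.174 with the mean of replicates 2 and 3.

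Without 1 library, ranges that crossed 0 with HNG were -0.098 to 0.065 for Prkaa2, -0.055 to 0.033 for Prkag1 and -0.023 to 0.027 for Csnk2b. With MOTS-c they were -0.042 to 0.032 for Prkaa2, -0.027 to 0.016 for Csnk2a1, -0.050 to 0.0040 for Prkag1, -0.034 to 0.058 for Flcn, -0.040 to 0.026 for Lamtor1 and -0.00050 to 0.019 for Srebf1, and -0.595 to 0.723 points for the Csnk2a1 share. Between the peptides they were -0.093 to 0.067 for Prkaa2, -0.038 to 0.087 for Prkag2, -0.039 to 0.051 for Prkag1 and -0.041 to 0.011 for Csnk2b. The shares ran from -1.53 to 0.500 points for Prkaa1, -0.591 to 0.555 for Prkab1 and -1.01 to 0.635 for Prkag1. The causes of these shifts were not tested.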
